A study of Mus musculus with 18 samples.

Results

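FoxA1 knockout mice were compared at 2 ages, P31 and P14 (postnatal days 31 and 14), by arrays of RNA from the skin of their fore footpads. The comparison took the 3 arrays of P31 knockouts and the 3 arrays of P14 knockouts, 6 of the 18 arrays of the series. It covered every transcript probe whose skin signal was well above background on at least 3 of these 6 arrays. Of 42006 probes on the array, 24642 (58.7%) met that rule, and 24624 with no missing value were tested.

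Both knockout groups were C57BL/6 mice labelled as a gene knockout, of mixed sex, with 3 animals at each age. The labels used here do not say how the knockout was made, which cells lack FoxA1, or the sex of each animal. The series also holds P10 knockouts and, for each of the 3 ages, wild-type littermates, again with 3 arrays in each group. The design text calls the animals embryos although the ages are postnatal. They were treated here as separate animals.

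FoxA1 is a forkhead transcription factor that binds condensed chromatin and opens it for other factors. In the mouse, eccrine sweat glands lie in the hairless skin of the paws, where they bud from the epidermis and then form a coiled secretory portion joined to a duct. FoxA1 is known in these glands for its part in sweat secretion, and the series title names 2 proteins of that process, the anion channel Best2 and a cotransporter. The paw also grows between the ages compared, and its skin holds epidermis, dermis, vessels, nerves and fat besides the glands. In such bulk RNA, fewer cells of a type and less RNA per cell cannot be told apart.

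The scanner files give each probe an identifier and its 60 bases, and 0 of them carry a gene name. Foxa1, Best2, and the markers of sweat gland, muscle, immune and other cells were therefore not analysed here, so the labelled tissue was not checked against its markers. The probes are described by identifier and sequence, and the few whose sequence reached a known transcript start by gene. The sequences below belong to the 2 probes that rose most and the 2 that fell most, with a probe that overlaps one of them. These 2 and 2 were taken from those of the 1422 probes passing the test whose arrays did not overlap between the ages. Their lack of overlap below follows from that choice. They are printed 5′ to 3′ as deposited.
Z00023589-1, rose: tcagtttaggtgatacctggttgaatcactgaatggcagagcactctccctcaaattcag
Z00033785-1, rose: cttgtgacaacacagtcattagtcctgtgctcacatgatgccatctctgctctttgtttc
Z00074756-1, fell: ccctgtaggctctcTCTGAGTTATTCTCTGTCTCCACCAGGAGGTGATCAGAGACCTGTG
probe overlapping Z00074756-1: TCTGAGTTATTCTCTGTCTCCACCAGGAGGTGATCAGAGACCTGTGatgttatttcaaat
Z00074796-1, fell: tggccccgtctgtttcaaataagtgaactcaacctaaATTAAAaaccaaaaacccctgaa
Capitals in the 2 overlapping probes mark the 46 bases they share, positions 15 to 60 of Z00074756-1 and 1 to 46 of its partner. In Z00074796-1 they mark ATTAAA at positions 38 to 43, the letters of a common variant of the polyadenylation signal. Z00023589-1 and Z00033785-1 share no marked motif.

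Each value is a log2 ratio of skin RNA (Cy3) over a common reference (Cy5), so 1 unit is a 2-fold difference. On the 6 knockout arrays 55.6% to 63.7% of probes were well above background and 0 Cy3 spots were saturated. The median Cy3 spot brightness was 107 to 146, and that of the surrounding background 44 to 48. The number of arrays, not counts of molecules, limits the precision. Arrays of one age correlated at 0.983 to 0.988 at P14 and 0.964 to 0.978 at P31, and arrays of different ages at 0.947 to 0.966. The first principal component held 46.0% of the variance and separated the ages, at -31.6 to -20.9 for P14 and 25.8 to 30.3 for P31. The second, with 26.5%, set P31 replicate 3 (42.0) apart from P31 replicates 1 and 2 (-17.5 and -22.1). That array was on another slide than the other P31 knockouts, and the 3 P14 knockouts shared a slide that held no P31 array. No slide held both knockout ages, so a difference between slides and one between ages cannot be told apart within the knockout alone.

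Between P14 and P31, 1422 of 24624 probes changed in knockout footpad skin (5.77%). A probe counted as changed with an adjusted p under 0.05 and a fold over 1.5, in a fit with limma over all 18 arrays and Benjamini-Hochberg adjustment over all tested probes. More probes fell than rose, with 956 lower at P31 (3.88%) and 466 higher (1.89%). At an unadjusted p under 0.05 stood 5519 probes (22.4%). The median change over all tested probes was 0.05, and 59.3% of them had a positive change. The probes that rose had a median change of 0.81 with quartiles of 0.67 and 1.05, and 136 of them rose more than 2-fold and 12 more than 4-fold. The probes that fell had a median of -0.83 with quartiles of -1.03 and -0.69, and 262 fell more than 2-fold and 16 more than 4-fold.

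The arrays of the ages did not overlap for 458 of the 466 probes that rose and 953 of the 956 that fell. Over all tested probes, all 3 P31 arrays lay above the 3 P14 arrays for 3078 (12.5%) and below them for 3072 (12.5%). The calls themselves rest on this contrast, so the counts describe it. By permutation alone, 3 arrays against 3 cannot give a p below 0.1.

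Leaving out 1 P14 or P31 array gave 28.3% to 44.7% rises among the knockout calls, against 32.8% with all arrays. Falls outnumbered rises in each of these fits, while the counts moved with single arrays. Without P31 replicate 3, 661 probes rose and 817 fell, and 386 and 737 of these were among the calls from all arrays. Without P14 replicate 2, 272 rose and 685 fell (28.4% rises). The median SD was 0.21 over the 3 P31 arrays, 0.13 over P31 replicates 1 and 2 alone, and 0.13 over the 3 P14 arrays. The median SD of 2 arrays runs lower than that of 3, so the last 2 values are not compared. With slide as a fixed block, which links the knockout ages only through wild-type P14 arrays on both slides, the standard error rose by a median of 1.87 times. That fit called 74 probes, with 38 rises and 36 falls (51.4% rises). The 1422 include 60 of them. The direction of change was kept by 1421 of the 1422, with a median of 0.93 for the probes that rose and -0.81 for those that fell.

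**Figure D1:**
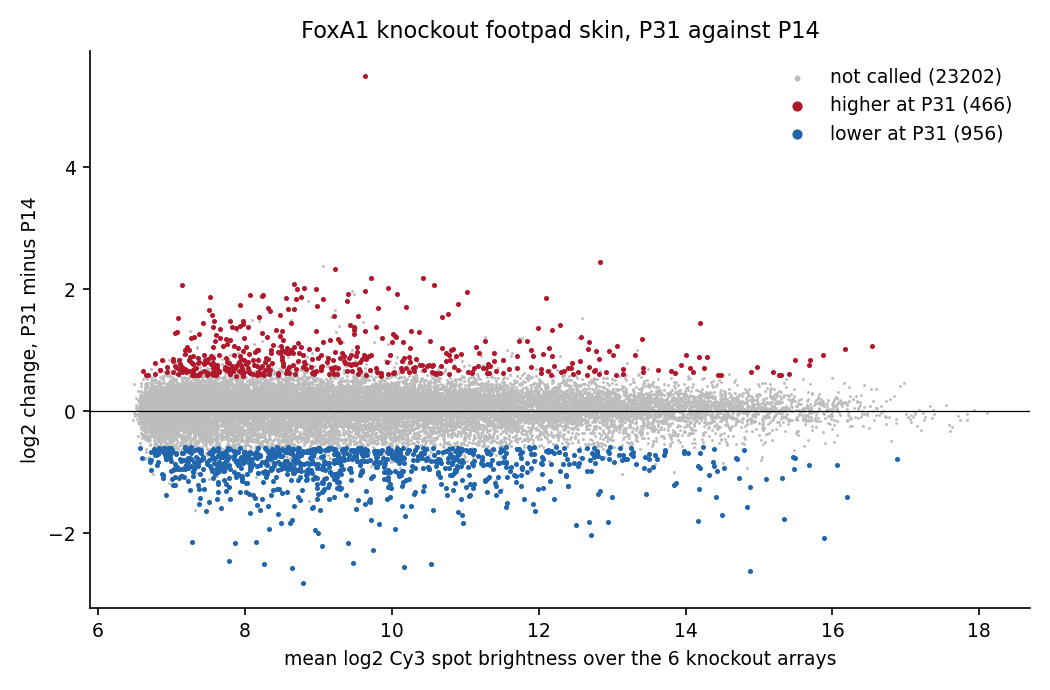
Log2 change from P14 to P31 in FoxA1 knockout footpad skin (y axis) against the mean log2 Cy3 spot brightness over the 6 arrays (x axis), 1 point per tested probe. The 466 probes that rose (red) and the 956 that fell (blue) spread over the whole range of brightness, and 1 probe stands far above the others at 5.49.

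Changed probes were found at every level of signal but least among the dim ones. The tested probes were divided by brightness into 4 sets of 6156. In the dimmest, with a mean Cy3 brightness under 164, 51 rose and 103 fell (2.5% called). The next set, up to 473, held 179 that rose and 308 that fell (7.91%). The set up to 2035 held 141 and 338 (7.78%), and the brightest 95 and 207 (4.91%). All 6 arrays were well above background for 1330 of the 1422 changed probes (93.5%).

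Probe Z00023589-1 had the largest change of all. Its log2 ratio was 0.89, 0.94 and 0.78 on the 3 P14 arrays and 6.93, 5.67 and 6.48 on the 3 P31 arrays. It was low on every P14 array and high on every P31 array, with a wide gap between the ages. Its Cy3 brightness was between 118 and 158 at P14 and between 2028 and 8449 at P31, while the Cy5 reference stayed dim at 68 to 115. The change was 5.49 (SE 0.23), 45.0-fold, with an adjusted p of 8.8e-10 in limma. At P10 the knockouts stood at 0.79 ± 0.21 (SD, n = 3), a level like that of P14. The call was kept under every alternative setting tried, with changes from 4.70 to 6.62, including slide as a fixed block (5.34, adjusted p 4.7e-04 in limma).

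Probe Z00033785-1 was already bright at P14 and rose further. Its log2 ratios were 5.54, 4.62 and 4.37 at P14 and 7.47, 7.63 and 6.77 at P31. The P14 arrays spread over more than 1 unit, and the lack of overlap between the groups was a condition of the choice. The change was 2.45 (SE 0.34), 5.45-fold, with an adjusted p of 2.4e-04 in limma. Both channels brightened at this spot, by 4.42 in Cy3 and 1.98 in Cy5 on the log2 scale. The Cy3 channel alone gave 4.40, and the scanner's own log ratio gave 0.70, which did not pass (adjusted p 0.311 in limma). Slide as a fixed block gave 2.54 and also did not pass (adjusted p 0.0990 in limma).

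Probe Z00074756-1 fell the most. Its log2 ratios were 3.05, 2.87 and 2.94 at P14 and 0.45, 0.16 and -0.17 at P31. All P14 arrays stood far above all P31 arrays, and the P14 arrays lay close together. The change was -2.81 (SE 0.24), 6.99-fold lower, with an adjusted p of 4.1e-06 in limma, and with slide as a fixed block it was -2.41 (adjusted p 0.0415 in limma). Its Cy3 brightness was between 1010 and 1500 at P14 and between 147 and 174 at P31.

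The probe that shares 46 of its bases moved in the same way. It read 2.62, 2.51 and 2.71 at P14 and 0.40, 0.02 and -0.09 at P31, where it was not well above background on replicate 3. Its groups did not overlap either. The change was -2.50 with an adjusted p of 1.0e-05 in limma, and -2.17 (adjusted p 0.0539 in limma) with slide as a fixed block. Both probes read largely the same stretch of RNA, so they are not independent measurements of it.

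Probe Z00074796-1 shows a fall that came in large part with a brighter reference. Its log2 ratios were 2.34, 3.89 and 2.80 at P14 and 0.35, 0.18 and 0.63 at P31, with no overlap. The change was -2.62 (SE 0.45), 6.15-fold lower, with an adjusted p of 0.0014 in limma. Its Cy5 brightness ranged from 5474 to 17612 at P14 and from 10232 to 50500 at P31, and its Cy3 brightness from 27410 to 53604 and from 17422 to 27226. Between the ages the Cy5 level of this spot rose by 1.69 and its Cy3 level changed by -0.93 on the log2 scale. With Cy3 alone the change was -0.86 and did not pass (adjusted p 0.302 in limma), nor did it with slide as a fixed block (-3.47, adjusted p 0.104 in limma).

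**Figure D2:**
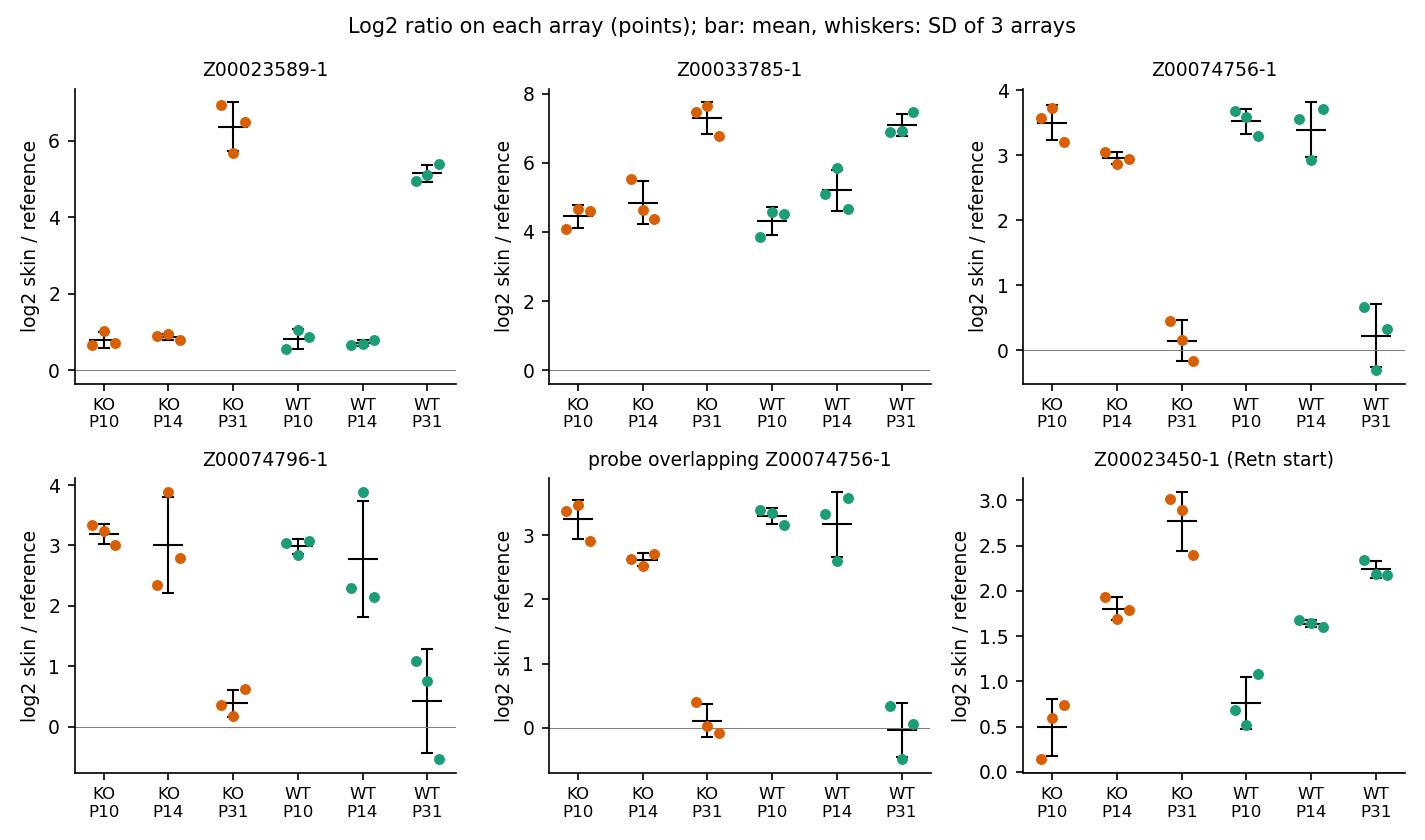
Log2 ratio of skin over reference on each array (points) for the 4 named probes, the probe overlapping Z00074756-1 and the Retn probe, with FoxA1 knockouts (KO, orange) and wild types (WT, green) at P10, P14 and P31. Bars are means and whiskers SDs of 3 arrays. In each panel the P31 knockout arrays lie apart from the P14 knockout arrays. They lie higher for the 2 probes that rose and Retn and lower for the other 3. For the 4 named probes this gap was a condition of the choice.

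Over the changed probes most of the movement was in Cy3. The median Cy3 change was 0.82 for the 466 probes that rose and -0.91 for the 956 that fell, against median Cy5 changes of 0.01 and -0.06. Cy3 moved in the direction of the call for all 466 and all 956. Over all tested probes it moved in the direction of the ratio change for 21953 of 24624. Cy3 is 1 side of that ratio, so such agreement is largely built in. The Cy5 change was larger than the Cy3 change for 5 that rose and 5 that fell, and over all tested probes, most of which changed little, for 18.6%. A Cy5 change over 1.5-fold was more frequent among the changed probes, at 24 of the 466 (5.15%) and 30 of the 956 (3.14%), than over all tested probes, at 235 of 24624 (0.954%). The part of the reference in these calls was not tested.

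Gene names could be given to 155 of 42006 probes, those with at least 30 consecutive bases equal to the sense strand just after 1 RefSeq transcript start (GRCm38.p6). A further 14 matched several symbols and were left unnamed. Of the named probes 61 were tested. With limma, 1 rose (1.64%, against 1.89% of all tested probes) and 0 fell (against 3.88%). An unadjusted p under 0.05 was reached by 9 of the 61, against 22.4% of all tested probes. The median change of the 61 was 0.07. Most probes match no such window, so these genes are not a sample of the 1422.

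The named gene that rose was Retn, which encodes resistin, a hormone secreted by fat cells in the mouse. Its probe matched 49 bases at the start of the transcript (GRCm38.p6, chr8:3655771-3655819, plus strand), within the first 50 bases of the gene. The log2 ratio was 1.94, 1.69 and 1.78 at P14 and 3.02, 2.89 and 2.40 at P31. All P31 arrays were above all P14 arrays, with P31 replicate 3 the lowest of its group. The change was 0.97 (SE 0.18), 1.95-fold, with an adjusted p of 0.0024 in limma, and its Cy3 brightness was between 224 and 327 at P14 and between 402 and 659 at P31.

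Retn was lower still at P10, at 0.49 ± 0.32 (SD, n = 3), where 1 of 3 knockout arrays was well above background. It had risen by 1.31 between P10 and P14 (adjusted p 4.4e-04 in limma), a comparison that shares the P14 arrays with the one above. The Cy5 reference was well above background for this probe on 4 of the 6 arrays. The P31 call did not hold with the scanner's log ratio (0.11, adjusted p 0.900 in limma), the deposited value table (0.11), a normexp offset of 0 (0.78), Cy3 alone (1.51, adjusted p 0.0570 in limma) or slide as a fixed block (1.20, adjusted p 0.0852 in limma). Retn is 1 of 18 adipocyte markers listed for this tissue, and the others have no named probe here.

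Other cell type and process genes with a named, tested probe did not pass. Acta2, the smooth muscle actin of myoepithelial and vascular cells, had a change of 0.06 and was well above background on 1 of 3 P14 and 2 of 3 P31 arrays. Tyms, the thymidylate synthase of dividing cells, had a change of 0.07 with 2 of 3 arrays detected at each age. Both stood near the detection limit, so these probes say little of either gene.

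The following genes were picked after their values were seen, as the best known of the 61, and did not pass either. Among genes of protein synthesis, Rps25 had a change of 0.09, Fau of -0.02, Rpl10a of 0.21, and Mrps21, of the mitochondrial ribosome, of -0.0032. Among spliceosome genes, Snrpg had -0.13, Snrpf 0.12 and Snu13 0.02. Of enzymes against oxidative stress, Prdx1 had a change of 0.33 (adjusted p 0.285 in limma) and Gstp1 of 0.05. Taldo1, of the pentose phosphate pathway, had 0.33 (adjusted p 0.0870 in limma), and the cytokine Mif 0.24 (adjusted p 0.242 in limma). Lce1l, a late envelope gene of the outer epidermis, was high in log2 ratio at both ages, at 3.75 ± 0.05 at P14 and 4.02 ± 0.37 at P31 (SD, n = 3 each), with a change of 0.28 (adjusted p 0.440 in limma). Ntng1, a netrin-like adhesion protein of neurons, had the most negative change among these, at -0.52 (adjusted p 0.142 in limma).

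A small group of probes crossed the detection limit between the ages. For 204 tested probes 0 of 3 P14 arrays and 3 of 3 P31 arrays were well above background, and 10 of them were called higher, against 1.89% of all tested probes. For 44 the pattern was the reverse, and 19 of them were called lower, against 3.88%. These probes met the detection rule only through the age where they were high, so nothing is read from those shares. Their folds were taken as bounds on the Cy3 level, setting the mean of the brighter age against a floor for the dimmer one. The floor is the weakest Cy3 level that passed as detected on each array or, if greater, the level of the probe. The Cy3 bounds of the 10 called probes ran from at least 1.30-fold to at least 3.17-fold higher at P31, and those of the 19 from at least 1.32-fold to at least 4.12-fold lower. They do not bound the ratio to the reference, whose change was smaller than the Cy3 bound for 2 of the 10 and 4 of the 19. Skin carried Cy3 at both ages and dyes were not swapped, and a dye bias that varies with brightness was not tested.

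In wild types the same change of detection on all arrays was seen for 12 of the 204 and 13 of the 44. Among the called probes it was seen for 3 of the 10 and 7 of the 19. For 4 of the 10 at least 1 wild-type P14 array was well above background, and for 7 of the 19 at least 1 wild-type P31 array.

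Probes that overlap in sequence gave a check within the arrays. Both probes were tested in 739 pairs that share a run of at least 25 bases, over 1333 probes. The sequences were identical in 10 of these pairs. Their changes correlated at 0.93 over pairs, with a median absolute difference of 0.04 on the log2 scale, as a description of probes that share target and array. At least 1 probe was called in 49 pairs, and in 36 of these both were called in the same direction, 13 higher and 23 lower. In 13 pairs 1 probe was called, and the signs were opposite in 1 of the 49, at -0.93 and 0.53 with 31 shared bases. Pairs without a call could lie further apart, as in 1 at 1.01 and -0.93 with 27 shared bases.

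**Figure D3:**
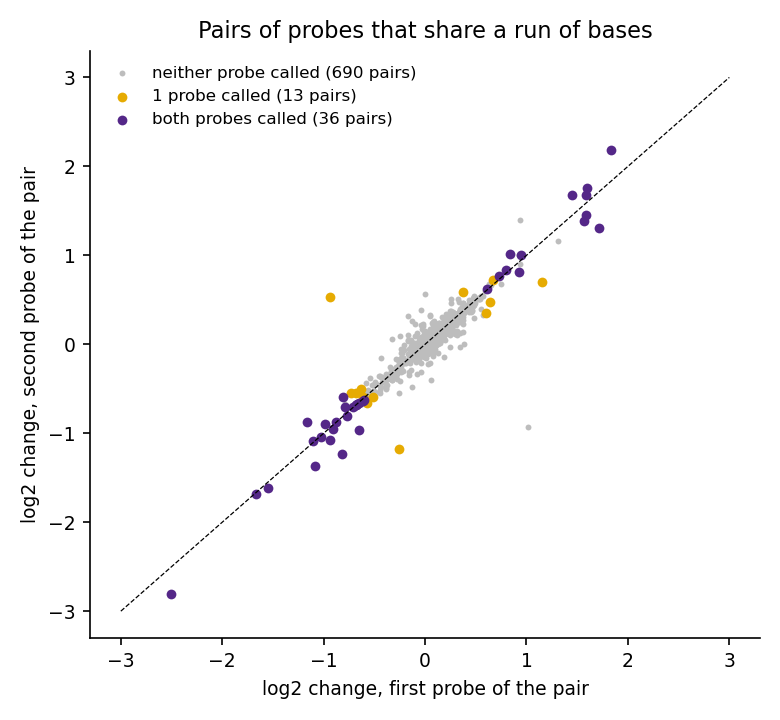
Log2 change from P14 to P31 in FoxA1 knockouts of both probes in 739 pairs that share at least 25 bases, first probe on the x axis and second on the y axis, with the line of equality dashed. The 36 pairs with both probes called (purple) lie near the line, and 1 of the 13 pairs with 1 probe called (yellow) lies in the upper left, at -0.93 and 0.53.

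The base composition of the changed probes is given as a description, without a test. The median GC content was 45.0% among probes that rose, those that fell and all tested, with means of 46.0%, 43.7% and 45.0%. In 4 equal sets ordered from the lowest to the highest GC content, 98, 107, 132 and 129 probes rose and 261, 242, 279 and 174 fell, with the fewest falls in the set richest in GC. Motifs were searched on the printed strand only, since array probes have the sense of the transcript, and overlaps between motifs were not removed. The polyadenylation signal AATAAA was in 7.73% of the probes that rose, 9.21% of those that fell and 7.87% of all. Its variant ATTAAA was in 4.29%, 3.77% and 3.37%. TATTTA, which contains the ATTTA of AU-rich elements, was in 8 of 466 (1.72%), 33 of 956 (3.45%) and 614 of 24624 (2.49%). Other patterns searched were in at most 1 probe of each changed set.

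The changed probes also had levels at P10. Those arrays entered the fit's estimate of the spread but not the change from P14 to P31. No slide with a P10 array held an array of another age. Slide and age therefore cannot be told apart in any comparison with P10. The probes that rose had a median log2 ratio of 0.39 in P10 knockouts, 0.65 in P14 and 1.62 in P31. Array by array these medians were 0.37 to 0.39 at P10, 0.59 to 0.70 at P14 and 1.42 to 1.68 at P31, with P31 replicate 3 the lowest of its group. The probes were chosen on the P14 and P31 arrays, so the gap between those ages follows from the choice. All P10 arrays lay below all P14 arrays in this median. The probes that fell had medians of 1.46, 1.07 and 0.21, with arrays at 1.38 to 1.52, 1.06 to 1.13 and 0.14 to 0.24. Between P10 and P14 alone, 499 tested probes rose and 778 fell in the knockouts by the same limits, a comparison that shares the P14 arrays.

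**Figure D4:**
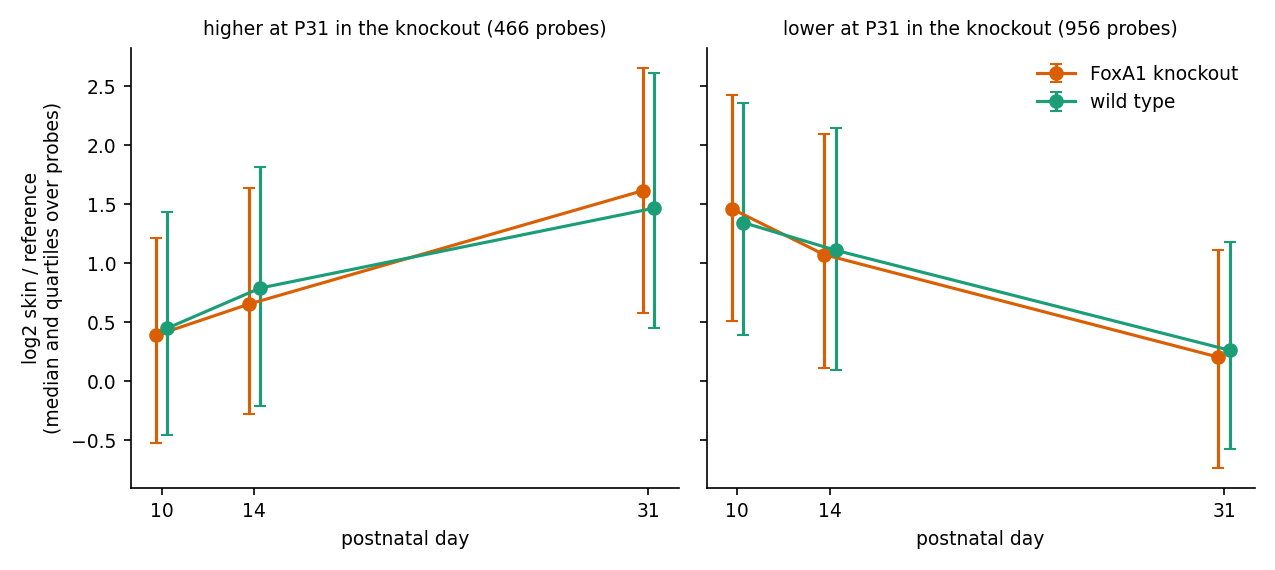
Median log2 ratio of skin over reference, with quartiles over probes as whiskers, by postnatal day (x axis) for the 466 probes that rose (left) and the 956 that fell (right) in the knockout from P14 to P31, in FoxA1 knockouts (orange) and wild types (green). In the knockouts the medians go from 0.39 at P10 to 1.62 at P31 on the left and from 1.46 to 0.21 on the right, and the wild types follow with 0.45 to 1.47 and 1.35 to 0.26.

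The wild-type littermates give the change with age in animals not labelled as knockouts. They are other animals on other arrays, although some share slides with the knockouts. No slide held both wild-type ages either. A difference between slides that went the same way in both genotypes cannot be told apart from age in the values below. With slide as a fixed block 248 probes were called in wild types. Of the 466 probes that rose in the knockout, 455 (97.6%) also had a positive change in wild types, where 54.0% of all tested probes did, with a median of 0.65. Of the 956 that fell, 896 (93.7%) had a negative change, against 46.0% of all tested, with a median of -0.82. By the same limits 1910 probes changed in wild types (7.76%), 716 higher (2.91%) and 1194 lower (4.85%). The 716 rested on single arrays: it was 440 without wild-type P14 replicate 1 and 400 without P14 replicate 3. Without P31 replicates 1, 2 and 3 of the wild types in turn it was 1392, 376 and 1100.

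Of the probes that rose in knockouts, 235 were also called higher in wild types, which is 50.4% of the 466 and 235 of the wild types' 716. Of those that fell, 676 were also called lower, which is 70.7% of the 956 and 676 of 1194. With limma 0 of the 1422 were called in the opposite direction. The probes were selected on the knockout arrays, so the sizes in the genotypes are not compared from these medians. Across the 1422 probes the changes of the genotypes correlated at 0.90, and across all tested probes at 0.65, as a description over probes of the same arrays.

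The named probes moved the same way in wild types. Z00023589-1 read 0.65, 0.68 and 0.79 at P14 and 4.94, 5.10 and 5.39 at P31, a change of 4.44 (adjusted p 2.6e-08 in limma). Its change in knockouts was 5.49. Z00033785-1 had a wild-type change of 1.89 beside 2.45 in knockouts. Z00074756-1 had -3.17 beside -2.81, and its overlapping partner -3.20 beside -2.50. Z00074796-1 had -2.34 beside -2.62. Retn rose by 0.60 in wild types (adjusted p 0.0358 in limma) beside 0.97 in knockouts. These probes were picked on their knockout change, so the values are set side by side and no difference between genotypes is read from them.

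The difference of the age changes was tested for every probe, and 0 of 24624 passed in limma, with a smallest adjusted p of 0.377. At an unadjusted p under 0.05 stood 1730 probes (7.03%). An ordinary linear model per probe also called 0, with 1689 at an unadjusted p under 0.05. The unadjusted 95% interval of a difference reached a median of 0.46 log2 units to either side. Adjusted over all probes, even the largest difference among the 1422, 2.03 log2 units, did not pass. Without wild-type P31 replicate 3 the test called 387 probes, 80 with the knockout change higher and 307 lower. No other single array left out gave more than 1.

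**Figure D5:**
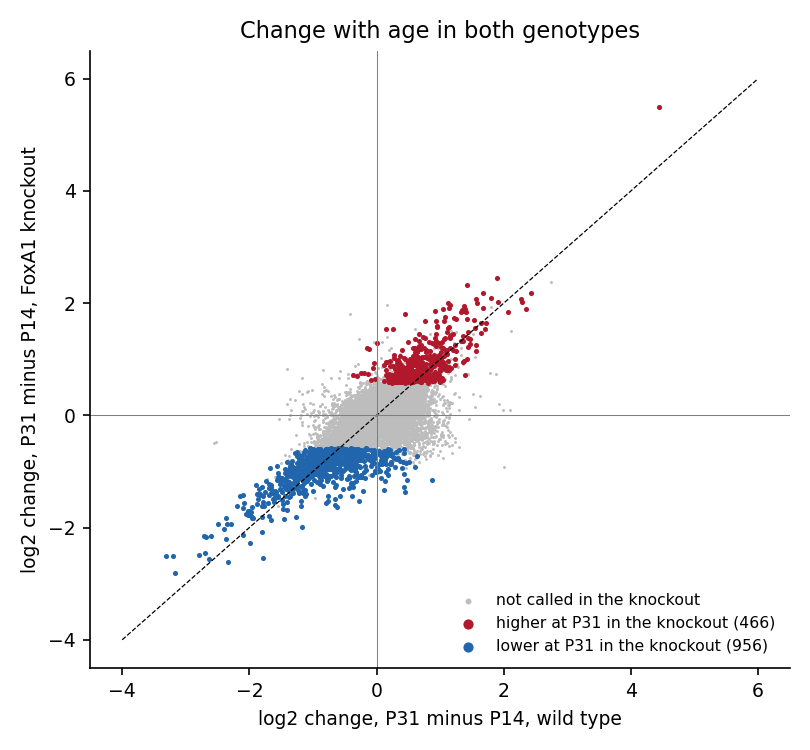
Log2 change from P14 to P31 in FoxA1 knockouts (y axis) against wild types (x axis), 1 point per tested probe, with the line of equal change dashed. The 466 probes that rose in the knockout (red) lie mostly in the upper right and the 956 that fell (blue) mostly in the lower left, with 11 and 60 on the other side of 0 in wild types.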

How the data were processed

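Skin RNA was labelled with Cy3 and a pooled reference of cell line and 129ES cell RNA with Cy5, without dye swap, after Trizol extraction, LiCl precipitation and linear amplification, per the labels' protocols. The deposited scanner files hold spot brightness and background as intensity, made with Agilent Feature Extraction 9.5.1.1 per the file headers. Per the file headers they also hold a log10 ratio of reference over skin and other values, namely marks of 0 or 1 for outliers, saturation and signal well above background. The authors' deposited value table of 25030 probes is in log10 units. It was set against the log10 ratio of the scanner's processed signals, skin over reference, after centring each probe. The slope was 1 and the largest difference 2.0e-04, over 13570 probes. The table's column medians were 2.42 to 2.48, and the constant it adds per probe is not given in the sources used here.

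Brightness was corrected with normexp (offset 50) and loess within arrays in limma 3.58.1 under R 4.3.3, turned to log2 skin over reference, and averaged from 42034 spots to 42006 probes, with control spots at weight 0 and outlier spots (1 to 13 per array) set to missing. A model of 6 group means over 18 arrays (12 residual degrees of freedom) was tested with eBayes, two-sided. Scripts were tested on simulated data. The limits of fold and adjusted p are those of the series design. Members and gene lists were chosen with earlier results of these data known. The naming rule took the called, non-overlapping genes with the largest changes. As the scanner files name no gene, it was applied to probes, 2 in each direction, and to 155 probes matched to transcript starts by a rule chosen after seeing the data. The gene lists were otherwise not analysed here.

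Alternatives were other background corrections, normalizations and filters, Cy3 alone, the deposited table, no fold limit and no variance moderation. Others were the compared groups alone, slide and replicate blocks, array weights, and leaving out each P14 or P31 array in turn. P10 arrays were not left out.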

Additional observations from a re-analysis of the deposited data

How the results depend on the processing

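In the knockout, 16 of 17 alternative settings gave counts within 1.5 times of 1422, from 1151 without variance moderation to 2130 without a fold limit. Among the 16, Aquantile normalization between arrays leaves the log2 ratios unchanged, so its count of 1422 was fixed in advance. Slide as a fixed block gave 74 (51.4% higher, against 32.8%). Leaving out 1 array gave 957 to 1543, with 28.3% to 44.7% higher. In wild types no fold limit gave 3092, the compared groups alone 796 and slide as a fixed block 248. Leaving out 1 array gave 1245 to 2736, and 376 to 1392 higher, with the lowest without wild-type P31 replicate 2 and the highest without wild-type P31 replicate 1. For the difference between genotypes the deposited table, slide as a fixed block and the replicate block gave 1 probe each, and leaving out 1 array gave 0 to 387. The replicate numbers were not taken as pairs of animals in the main fit. Deviations of arrays with the same number correlated at 0.09, -0.17 and -0.10 between the ages. Those of arrays with different numbers correlated at -0.20 to 0.29. With 3 arrays a group these values cannot show whether the numbers carry a pairing. With the replicate block 1465 probes were called in the knockout. The named probes kept their direction under every setting run and their call when any single P14 or P31 array was left out. The excess of falls did not hold throughout: with slide as a fixed block rises and falls were 38 and 36 in the knockout and 134 and 114 in wild types, and 1392 and 1344 in wild types without P31 replicate 1. Besides the settings named beside them, Z00033785-1 lost its call with the deposited table (0.70). The cause of these shifts was not tested. Precision is limited by 3 arrays a group, by the slides, and for dim probes by signal over background.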
